A study of Homo sapiens with 9 samples.

Results

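The genes described here belong to the HLA class I antigen presentation pathway. They were chosen by name and are 9 of the 58051 genes counted: the class I heavy chains HLA-B, HLA-C, HLA-E, HLA-F and HLA-G, the light chain B2M (beta-2 microglobulin), the peptide transporter subunits TAP1 and TAP2, and TAPBP (tapasin). No measured value entered the rule that chose them, but earlier results of these data were known when they were listed. Enough reads were counted for a test in 8 of the 9, the exception being HLA-G.

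Class I molecules carry short peptides from the cell's own proteins to its surface, where CD8 T cells read them. Peptides are cut by the proteasome in the cytosol, pumped into the endoplasmic reticulum by the TAP1 and TAP2 heterodimer, and loaded onto a heavy chain paired with beta-2 microglobulin while tapasin holds the empty molecule next to the transporter. Most genes of the pathway are induced by interferons, and NLRC5, a transactivator, acts with RFX and other factors at class I promoters. Natural killer cells read HLA-E, and loss of class I molecules is a common way for tumour cells to escape T cells.

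RNA was taken from A431 cells, a human epidermoid carcinoma line that carries an endogenous mutant p53, in 3 groups with 3 libraries each. The parental group was the line itself. The Ctrl group was stably transfected with an empty GFP CRISPR vector and kept mutant p53, and the p53 KO group was stably transfected with a GFP CRISPR construct against p53, so that all groups share the A431 background and the 2 transfected groups share the vector. Cells were grown without further treatment in DMEM with 10% FBS as single colonies, then in 6 well plates, and harvested 48 h after settling. The study speaks of its stable A431 lines as clones. How many clones each transfected group holds, and whether libraries of a group came from separate cultures, was not stated, so a difference between clones and an effect of losing p53 cannot be told apart, and p-values measure only the spread between these libraries.

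The libraries held 19783778 to 29840452 counts on genes. Levels are given as CPM, counts scaled to the TMM-normalised size of each library, and as mean ± SD with n = 3 where an error follows. Listed epithelial markers summed to 15632 to 18623 CPM in parental, 10175 to 12450 in Ctrl and 14500 to 15194 in p53 KO libraries. Most of this was EGFR, so the sum mainly gives the level of that gene. KRT14, a basal keratin, had at most 13 counts. Leukocyte markers summed to 1.34 to 1.99, 1.43 to 2.07 and 2.28 to 3.25 CPM, with PTPRC, CD3E and MS4A1 at 0 counts in all 9 libraries and LYZ higher in p53 KO cells (17 to 40 counts, against 1 to 10 in the 6 control libraries). LYZ had enough counts for a test only through its p53 KO libraries. Other leukocyte markers were not at 0, with CD68 at 15 to 42 counts per library, ITGAM at 1 to 17 and CD14 at 0 to 9. Fibroblast and endothelial markers summed to 2.83 to 4.96 CPM over the 9 libraries. Among them COL1A1 had 47 to 114 counts per library, PECAM1 1 to 13 and VWF 0 to 13, while COL1A2 had 1 count in all. PECAM1 was called higher in Ctrl than in parental cells (edgeR adjusted p = 0.0250). At such counts a gene reaches the test mainly through the libraries where it is high, so this call is only a description. Ctrl replicate 1 stood apart from the other Ctrl libraries in that leaving it out raised the genes called between p53 KO and parental cells from 2631 to 4944. It had the highest Ctrl level of HLA-B, HLA-C, HLA-E, B2M and TAP1, so counts are also given without it.

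Of the 9 genes, 8 have a promoter in the RefSeq promoter table used here (build GRCh38.p14); HLA-E is the exception. The 200 bases before the annotated start are printed 5′ to 3′ on the gene's strand for 7 genes, 3 heavy chains with and without the marked letters and the 4 partner genes, since class I promoters share elements in this stretch. Capitals mark letters of the interferon response type, GAANNGAAA or GAAANNGAA on either strand. The windows are HLA-B at chr6:31357180-31357379 (minus strand), HLA-F at chr6:29723234-29723433 (plus), HLA-G at chr6:29827625-29827824 (plus), B2M at chr15:44711317-44711516 (plus), TAP1 at chr6:32853705-32853904 (minus), TAP2 at chr6:32838740-32838939 (minus) and TAPBP at chr6:33314079-33314278 (minus). They are reference sequence and may differ from the alleles of A431.
HLA-B: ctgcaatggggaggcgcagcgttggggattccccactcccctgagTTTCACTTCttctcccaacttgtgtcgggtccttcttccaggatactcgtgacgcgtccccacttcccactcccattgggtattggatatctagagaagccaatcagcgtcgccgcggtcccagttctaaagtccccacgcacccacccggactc
HLA-F: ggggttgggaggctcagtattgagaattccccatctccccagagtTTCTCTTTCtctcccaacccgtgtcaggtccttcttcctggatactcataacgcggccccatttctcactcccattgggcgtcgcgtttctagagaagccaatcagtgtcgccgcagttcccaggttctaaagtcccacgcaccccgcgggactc
HLA-G: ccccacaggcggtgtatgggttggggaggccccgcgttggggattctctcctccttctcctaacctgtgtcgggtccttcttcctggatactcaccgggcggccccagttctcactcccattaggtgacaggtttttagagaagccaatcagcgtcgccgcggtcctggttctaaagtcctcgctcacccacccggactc
B2M: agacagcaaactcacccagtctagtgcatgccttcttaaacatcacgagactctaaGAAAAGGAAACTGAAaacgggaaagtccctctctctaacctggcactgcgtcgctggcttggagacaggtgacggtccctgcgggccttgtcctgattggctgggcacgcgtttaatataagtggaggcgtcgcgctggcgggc
TAP1: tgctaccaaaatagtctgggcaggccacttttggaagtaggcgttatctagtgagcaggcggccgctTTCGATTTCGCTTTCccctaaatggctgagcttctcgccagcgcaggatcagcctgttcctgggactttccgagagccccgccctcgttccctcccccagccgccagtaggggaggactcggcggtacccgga
TAP2: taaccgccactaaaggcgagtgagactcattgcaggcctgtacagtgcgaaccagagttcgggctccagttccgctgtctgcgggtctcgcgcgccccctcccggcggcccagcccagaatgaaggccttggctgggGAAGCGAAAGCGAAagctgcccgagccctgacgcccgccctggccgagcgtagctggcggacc
TAPBP: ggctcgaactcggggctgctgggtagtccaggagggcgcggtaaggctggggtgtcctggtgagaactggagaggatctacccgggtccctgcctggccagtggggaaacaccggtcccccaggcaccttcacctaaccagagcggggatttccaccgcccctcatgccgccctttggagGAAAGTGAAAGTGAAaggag

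The marked letters stood in the windows of HLA-B, HLA-C and HLA-F at a single place each, and as a pair of overlapping matches in B2M, TAP1, TAP2 and TAPBP. They were not in the HLA-G window. In HLA-B and HLA-C the match was TTTCACTTC, 155 and 151 bases before the start. Among 35116 windows of the same length, 9.87% held such a match. The letters TGACG or their complement (18.4% of windows) were present in HLA-B, HLA-C, B2M and TAP2, and CCAAT or its complement (28.03%) in HLA-B, HLA-C, HLA-F, HLA-G and B2M. The letters were picked after these windows had been read, and a match is not evidence of binding. TAP2 and TAPBP, whose RNA did not pass the test in any comparison below, held as many marked matches as B2M and TAP1.

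Between groups, class I RNA was highest in p53 KO cells for most of these genes. A gene was called where edgeR's quasi-likelihood test gave a p-value of at most 0.05 after Benjamini-Hochberg adjustment over all 14513 genes tested. Against parental cells, 6 of the 8 genes tested were higher in p53 KO cells (HLA-B, HLA-C, HLA-E, HLA-F, B2M and TAP1) and 0 were lower, in a comparison that called 18.1% of all genes tested, 9.77% as higher and 8.36% as lower. Against Ctrl cells, 5 of 8 were higher (HLA-B, HLA-E, HLA-F, B2M and TAP1) and 0 were lower, where 29.2% of all genes were called, 15% as higher and 14.2% as lower. These 5 genes were called higher against both controls, as were 6.46% of the genes tested. Between the controls, 2 of 8 were called, HLA-B and HLA-F, both lower in Ctrl than in parental cells, where 20.3% of all genes were called, 10.6% as higher and 9.69% as lower. At an unadjusted p of 0.05, too, 0 of the 8 were lower in p53 KO cells, and DESeq2 on all 9 libraries called 6, 5 and 2 of the 8. The comparisons share libraries and are not independent of each other. The sizes were small for most of these genes. With a log2 fold change past 1.5 as a further condition, which 1.95% of genes met against parental cells, 3.29% against Ctrl cells and 1.94% between the controls, 0 of the 8 were called against parental cells. HLA-F was the 1 gene called against Ctrl cells and between the controls.

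The median log2 fold change of the 8 genes was 0.45 for parental and 0.33 for Ctrl cells as the reference, beside 0.01 over all genes tested in both comparisons. Between Ctrl and parental cells it was -0.04, beside 0.00. Without HLA-F, whose fitted values depend on very low counts in Ctrl cells, the medians were 0.43, 0.27 and -0.03. Without Ctrl replicate 1, 6 genes were called against parental, 6 against Ctrl and 2 between the controls. Over all genes, that refit called 4944 against parental cells, beside 2631 with all libraries, so the shares above do not apply to it.

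**Figure D1:**
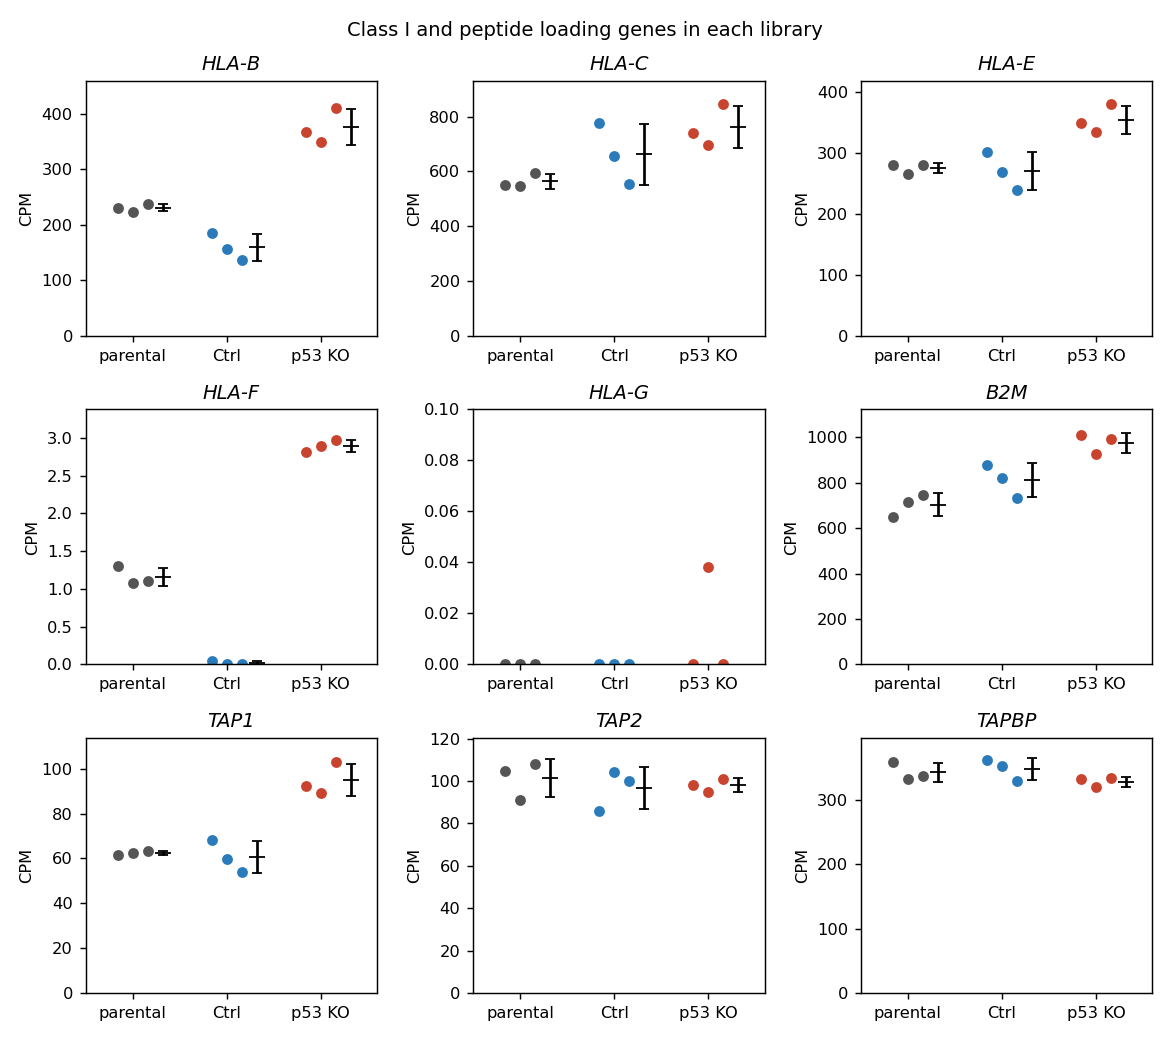
CPM (y axis, linear from 0) of the 9 genes in each library of parental, Ctrl and p53 KO cells; each point is 1 library, replicates 1 to 3 from left to right, and the bar beside them is the mean ± SD (not drawn for HLA-G, which had 1 count in all). The p53 KO points of HLA-B, HLA-E, HLA-F, B2M and TAP1 lie above all 6 control points, while those of TAP2 and TAPBP overlap the control points.

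HLA-B (ENSG00000234745, chr6:31353872-31367067 in GENCODE 44, minus strand) encodes a classical heavy chain that presents peptides to CD8 T cells. Its level was 231, 224 and 237 CPM in parental replicates 1 to 3, 186, 157 and 137 CPM in Ctrl and 368, 350 and 412 CPM in p53 KO replicates. The 3 groups did not overlap, with Ctrl lowest and p53 KO highest. The log2 fold change of p53 KO cells was 0.71 ± 0.11 (SE) against parental (edgeR adjusted p = 0.00101) and 1.24 ± 0.11 against Ctrl cells (adjusted p = 1.26e-05). Relative to parental cells, Ctrl cells stood at -0.53 ± 0.11 on the log2 scale (edgeR adjusted p = 0.00623). All 3 calls were made under each of 17 settings, the fit reported here and 16 refits with another test, filter, scaling, design or set of libraries. The condition of a log2 fold change past 1.5 is not one of these settings, and HLA-B did not meet it.

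HLA-C (ENSG00000204525, chr6:31268749-31272130, minus strand), the other classical heavy chain here and also a ligand of killer cell receptors, was less separated. It was at 549, 546 and 594 CPM in parental, 776, 658 and 553 in Ctrl and 739, 697 and 845 in p53 KO libraries. All p53 KO libraries lay above the parental ones, but the Ctrl libraries spread over almost the whole range. The log2 fold change from parental cells was 0.43 ± 0.12 (edgeR adjusted p = 0.0247) and from Ctrl cells 0.20 ± 0.12 (adjusted p = 0.226). The call against parental cells was lost with any single parental library left out (adjusted p 0.0555 to 0.0932), without p53 KO replicate 1 (0.0609) or without p53 KO replicate 3 (0.0980). Without Ctrl replicate 1, HLA-C was called against Ctrl cells too, at 0.33 (adjusted p = 0.00905).

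The counts of HLA-B and HLA-C moved apart between groups, and a ratio of both within a library does not depend on its depth. For each count of HLA-C there were 0.410 ± 0.0113 counts of HLA-B in parental (SD, n = 3), 0.242 ± 0.00520 in Ctrl and 0.496 ± 0.00756 in p53 KO libraries. The 3 groups did not overlap in this ratio, whose extremes were 0.238 in Ctrl and 0.501 in p53 KO cells. Class I genes are alike and polymorphic. How reads that fit several of them were counted was not given in the sources used here, and its part in a difference between heavy chains was not tested. Of the class I pseudogenes, 4 of 9 could be tested, and HLA-K was called higher in p53 KO cells, by 0.47 ± 0.09 against parental (edgeR adjusted p = 0.00440) and 0.55 ± 0.09 against Ctrl cells (adjusted p = 0.000841).

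HLA-E (ENSG00000204592, chr6:30489509-30494194, plus strand) presents leader peptides of other class I chains to natural killer cells. It was at 280, 266 and 280 CPM in parental, 302, 268 and 240 CPM in Ctrl and 349, 335 and 380 CPM in p53 KO libraries. The p53 KO libraries lay above all controls, and the controls overlapped each other. Its log2 fold change was 0.36 ± 0.09 against parental (edgeR adjusted p = 0.0149) and 0.39 ± 0.09 against Ctrl cells (adjusted p = 0.00596). The call against parental cells was lost without parental replicate 1, 2 or 3 (adjusted p 0.0505 to 0.0677) and without p53 KO replicate 3 (0.0628).

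HLA-F (ENSG00000204642, chr6:29722775-29738528, plus strand), a non-classical heavy chain that can reach the surface without peptide, was scarce but differed most. Parental libraries held 34, 28 and 24 counts, Ctrl libraries 1, 0 and 0, and p53 KO libraries 84, 76 and 60. In CPM that was 1.16 ± 0.121 in parental and 2.89 ± 0.0797 in p53 KO cells, whereas every Ctrl library was below the level of 3 counts (0.101 to 0.153 CPM over the 9 libraries). The increase from parental to p53 KO cells was 1.31 ± 0.19 on the log2 scale (edgeR adjusted p = 0.000899). Summed over libraries and scaled to their size, p53 KO cells had 214 times the HLA-F counts of Ctrl cells (95% Clopper-Pearson interval 38.1 to 8505) and parental cells 86.6 times (15.1 to 3459), intervals that cover counting error only. edgeR called both differences (adjusted p = 8.28e-07 and 2.74e-05), at fitted log2 fold changes of 7.29 and, for Ctrl against parental cells, -5.98, whose size depends on the prior count. HLA-F is overlapped by the antisense gene HLA-F-AS1, which was not called in any comparison (log2 fold changes of 0.22, 0.17 and 0.05).

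HLA-G (ENSG00000204632, chr6:29826967-29831125, plus strand), a non-classical chain best known from the placenta, had 1 count in all 9 libraries, in p53 KO replicate 2. It was not detectable at this depth in any group.

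B2M (ENSG00000166710, chr15:44711358-44718851, plus strand), the light chain that every class I heavy chain needs, lies outside the MHC. Its level was 647, 715 and 745 CPM in parental, 880, 820 and 731 CPM in Ctrl and 1011, 924 and 990 CPM in p53 KO libraries. The p53 KO libraries lay above all controls, and Ctrl libraries overlapped the parental ones. The log2 fold change was 0.47 ± 0.08 against parental (edgeR adjusted p = 0.00270) and 0.27 ± 0.08 against Ctrl cells (adjusted p = 0.0329). The smaller difference, from Ctrl cells, was lost without parental replicate 2 (adjusted p = 0.0517), p53 KO replicate 1 (0.116) or 3 (0.0757), or Ctrl replicate 2 (0.0742) or 3 (0.0988).

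TAP1 and TAP2, the subunits of the peptide transporter, differed from each other. TAP1 (ENSG00000168394, chr6:32845209-32853816, minus strand) was at 61.6, 62.5 and 63.5 CPM in parental, 68.2, 59.9 and 53.9 CPM in Ctrl and 92.2, 89.3 and 103 CPM in p53 KO libraries. All p53 KO libraries were above all controls. The log2 fold change of TAP1 was 0.60 ± 0.09 against parental (edgeR adjusted p = 0.00130) and 0.64 ± 0.09 against Ctrl cells (adjusted p = 0.000405), and it was called in both under the same 17 settings, though not with a log2 fold change past 1.5. TAP2 (ENSG00000204267, chr6:32821833-32838739, minus strand) was at 105, 91.2 and 108 CPM in parental, 85.8, 104 and 100.2 in Ctrl and 98.2, 94.9 and 101 in p53 KO libraries. The groups of TAP2 overlapped throughout, with log2 fold changes of -0.05 ± 0.09 against parental and 0.02 ± 0.09 against Ctrl cells (edgeR adjusted p = 0.766 and 0.908). For each count of TAP2 there were 0.621 ± 0.0561 counts of TAP1 in parental cells, 0.636 ± 0.140 in Ctrl cells and 0.966 ± 0.0436 in p53 KO libraries, where the lowest p53 KO library (0.940) was above the highest control (0.795).

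TAPBP (ENSG00000231925, chr6:33299694-33314284, minus strand), which encodes tapasin, was at 360, 333 and 337 CPM in parental, 362, 353 and 329 CPM in Ctrl and 332, 320 and 334 CPM in p53 KO libraries. The groups overlapped, and the log2 fold changes were -0.06 ± 0.06 against parental and -0.08 ± 0.06 against Ctrl cells (edgeR adjusted p = 0.549 and 0.379). Neither TAP2 nor TAPBP was called in any comparison under any of these 17 settings.

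**Figure D2:**
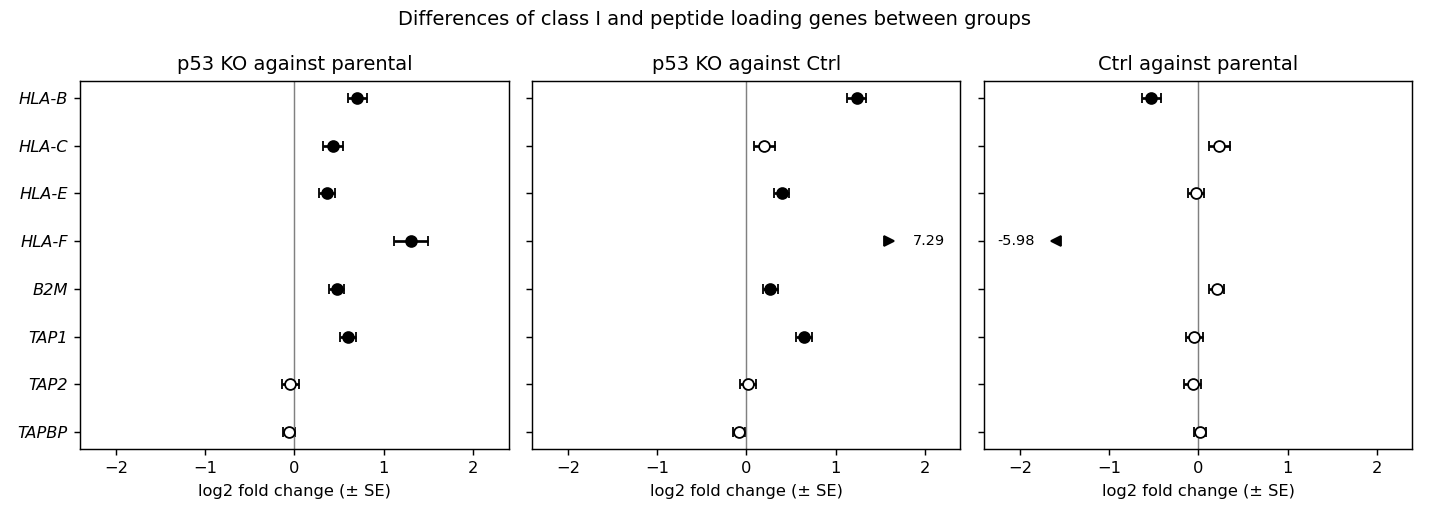
Fitted log2 fold change (x axis) of the 8 genes tested in the 3 comparisons named above the panels; points are estimates, bars are ± 1 SE, filled points passed an adjusted p of 0.05 and open points did not. In both comparisons with Ctrl cells HLA-F lies outside the axis and is drawn as an arrow with its value, 7.29 or -5.98.

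Set against the 6 control libraries together, all 3 p53 KO libraries were higher for 5 of the 8 genes and lower for 0, beside 11.9% and 10.1% of all genes tested. The difference of mean log2 CPM was 0.97 for HLA-B, 0.38 for HLA-E, 0.37 for B2M and 0.62 for TAP1, each with p = 0.0119 in a two-sided exact permutation test, the smallest that 84 splits can give. For HLA-F it was 3.55 (exact permutation p = 0.0238), and its p53 KO libraries were likewise above all controls, with parental and Ctrl levels far apart. It was 0.32 for HLA-C (exact permutation p = 0.0714), -0.01 for TAP2 (p = 0.917) and -0.07 for TAPBP (p = 0.131). These 8 p-values are not adjusted, and 3 libraries against 3 could not reach a p below 0.1 in such a test. The splits take the 6 control libraries as alike, although HLA-B and HLA-F were called between parental and Ctrl cells.

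Per kilobase of the canonical GENCODE 44 transcript, the order of levels in parental cells was B2M (745 ± 53.1 CPM per kb, SD, n = 3), HLA-C (365 ± 17.6), HLA-B (150 ± 4.20), HLA-E (108 ± 3.10), TAPBP (99.5 ± 4.22), TAP1 (23.3 ± 0.346), TAP2 (18.0 ± 1.58) and HLA-F (0.785 ± 0.0820). HLA-E and TAPBP were close neighbours there. In Ctrl cells HLA-B (104 ± 16.1), HLA-E (106 ± 12.3) and TAPBP (101 ± 4.93) lay within their spread of each other. In p53 KO cells HLA-B was at 245 ± 20.7, HLA-E at 139 ± 9.004, TAPBP at 95.3 ± 2.29, TAP1 at 35.3 ± 2.65 and TAP2 at 17.4 ± 0.564 CPM per kb. The order depends on the length chosen. With the length of all annotated exons, the log2 ratio of HLA-B to HLA-E in parental cells went from 0.47 to -0.92, and that of B2M to HLA-C from 1.03 to 0.00.

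Across the 9 libraries, log2 CPM of HLA-E and TAP1 had a Pearson r of 0.98, HLA-B and TAP1 of 0.93 and HLA-C and B2M of 0.92, whereas TAP1 and TAP2 had -0.13. The libraries fall into 3 groups, so these values mostly describe the group pattern. Among 10529 genes, those most like HLA-B over the libraries were SLC38A5, TYMP and KPNA2 (r of 0.996, 0.995 and 0.992). Those most like TAP1 were VAT1, PRSS3 and MMS19 (0.995, 0.994 and 0.989), and those most like B2M were ANAPC16, ANXA1 and SECTM1 (0.990, 0.982 and 0.981).

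Of the peptide supply to TAP, the immunoproteasome subunits, which replace the constitutive catalytic subunits when interferon is present, were partly higher in p53 KO cells. Of 5 genes (3 subunits and the activator chains PSME1 and PSME2), 3 were called higher against parental cells, PSMB8 by 0.55 ± 0.14, PSMB9 by 0.55 ± 0.14 and PSMB10 by 0.58 ± 0.16 (edgeR adjusted p = 0.0231, 0.0194 and 0.0251), and 0 were lower. Against Ctrl cells only PSMB9 was called, at 0.61 ± 0.14 (edgeR adjusted p = 0.00669). PSMB10 was higher in Ctrl than in parental cells, by 0.90 ± 0.15 (adjusted p = 0.00261). Ctrl replicate 1 was high for PSMB8 (100.4 CPM, against 74.6 and 61.3) and PSMB9 (30.5, against 21.1 and 19.9), and without it 5 genes were called against parental and 3 against Ctrl cells. That refit called 4944 genes in all against parental cells, beside 2631 with all libraries, so the shares given below do not apply to it. With any single parental library left out, or p53 KO replicate 3, 0 of the 5 were called against parental cells. Of 3 constitutive catalytic subunits, 0 were called by edgeR or by DESeq2, or passed an unadjusted p of 0.05, in any comparison. The median of the 5 genes was 0.55 against parental and 0.06 against Ctrl cells. Of all genes tested, 9.77% were called higher against parental and 15% against Ctrl cells.

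Chaperones and peptide editors of the endoplasmic reticulum showed 0 of 8 called against parental cells by edgeR or DESeq2, with 1 below an unadjusted p of 0.05. For this list and the next, edgeR called 18.1% of all genes tested against parental and 29.2% against Ctrl cells. Against Ctrl cells the lectin chaperone CANX (0.40 ± 0.10) and the trimming peptidase ERAP2 (0.41 ± 0.11) were higher (edgeR adjusted p = 0.0128 for both), and TAPBPL, a relative of tapasin that edits peptides, was lower by -0.60 ± 0.13 (adjusted p = 0.00556). TAPBPL was also higher in Ctrl than in parental cells, by 0.61 ± 0.13, while p53 KO cells stood at 0.01 ± 0.13 from parental cells and were not called. CANX was called lower in Ctrl than in parental cells, by -0.32 ± 0.10 (edgeR adjusted p = 0.0491), under 7 of the 17 settings. In p53 KO cells CANX stood at 0.08 ± 0.10 from parental cells and was not called. The call of ERAP2 was lost without p53 KO replicate 1 or 2 (adjusted p = 0.0582 and 0.0591), and that of TAPBPL between the controls without parental replicate 1 (0.0516). ERAP1, the other trimming peptidase, was at 0.04 ± 0.14 and 0.40 ± 0.14 and was not called (edgeR adjusted p = 0.856 and 0.0530). Of 6 cytosolic peptidases, 0 were called against parental cells by edgeR or DESeq2 (1 at an unadjusted p of 0.05) and 3 against Ctrl cells (BLMH at 0.42, NRDC at 0.19 and NPEPPS at 0.18), each of which was also called lower in Ctrl than in parental cells. Both calls of BLMH were made under all 17 settings. Against Ctrl cells NRDC was called under 6 of them and NPEPPS under 4, with adjusted p up to 0.170 and 0.188, and both calls were lost in edgeR with a replicate block (0.108 and 0.126). Their calls between the controls were made under 8 of the 17 and were lost with the block too (0.0872 and 0.0952).

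**Figure D3:**
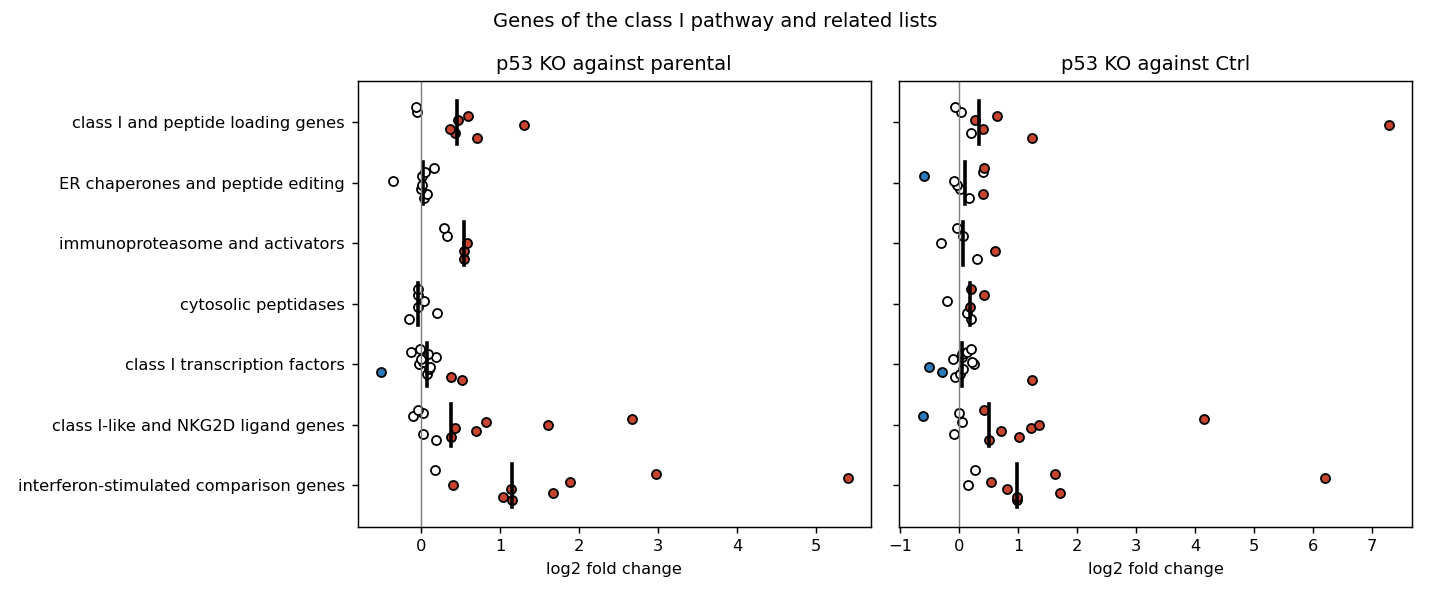
Fitted log2 fold change (x axis) of every tested gene of 7 lists in p53 KO against parental and against Ctrl cells; each circle is 1 gene, red circles were called higher, blue ones lower and white ones not called, and the vertical bar is the list's median. The medians of the class I and peptide loading genes are 0.45 and 0.33, and those of the interferon-stimulated genes 1.15 and 0.98.

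NLRC5, the class I transactivator, followed the order of HLA-B and HLA-F. It was at 17.1, 15.4 and 15.04 CPM in parental, 10.1, 9.48 and 9.38 CPM in Ctrl and 23.4, 21.6 and 23.2 CPM in p53 KO libraries. The 3 groups did not overlap. In p53 KO cells NLRC5 was higher by 0.52 ± 0.09 (log2) than in the parental line and by 1.24 ± 0.09 than in Ctrl cells, and Ctrl cells differed from the parental line by -0.72 ± 0.09 (edgeR adjusted p = 0.00182, 3.27e-06 and 0.000354). Among the 13 transcription factors of class I genes listed, 2 were called higher against parental cells, NLRC5 and IRF1 (0.38 ± 0.11, adjusted p = 0.0317), and 1 lower, RFX5, the DNA-binding RFX subunit (-0.51 ± 0.09, adjusted p = 0.00232). The call of IRF1 was lost with a replicate block (adjusted p = 0.0643), without parental replicate 1 or 3 (0.125 and 0.117) and without any single p53 KO library (0.0602 to 0.0972). Against Ctrl cells NLRC5 was higher while RFX5 (-0.30 ± 0.09, adjusted p = 0.0233) and RFXANK (-0.51 ± 0.12, adjusted p = 0.00916) were lower. This call of RFX5 was lost with a replicate block (adjusted p = 0.0653), with no filter beyond 1 count (0.0567) and without p53 KO replicate 2 (0.0978) or 3 (0.0667). IRF1, an interferon-induced activator, was at -0.07 ± 0.11 against Ctrl cells (edgeR adjusted p = 0.680) and higher in Ctrl than in parental cells by 0.44 ± 0.11 (adjusted p = 0.0154), a call lost without parental replicate 1 or 3 or Ctrl replicate 2 (0.0532 to 0.0726). Over all genes tested, 9.77% were called higher and 8.36% lower against parental cells, and 15% and 14.2% against Ctrl cells. The number of these 13 factors called was near or below what such shares give. What part these factors have in the class I levels was not tested.

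**Figure D4:**
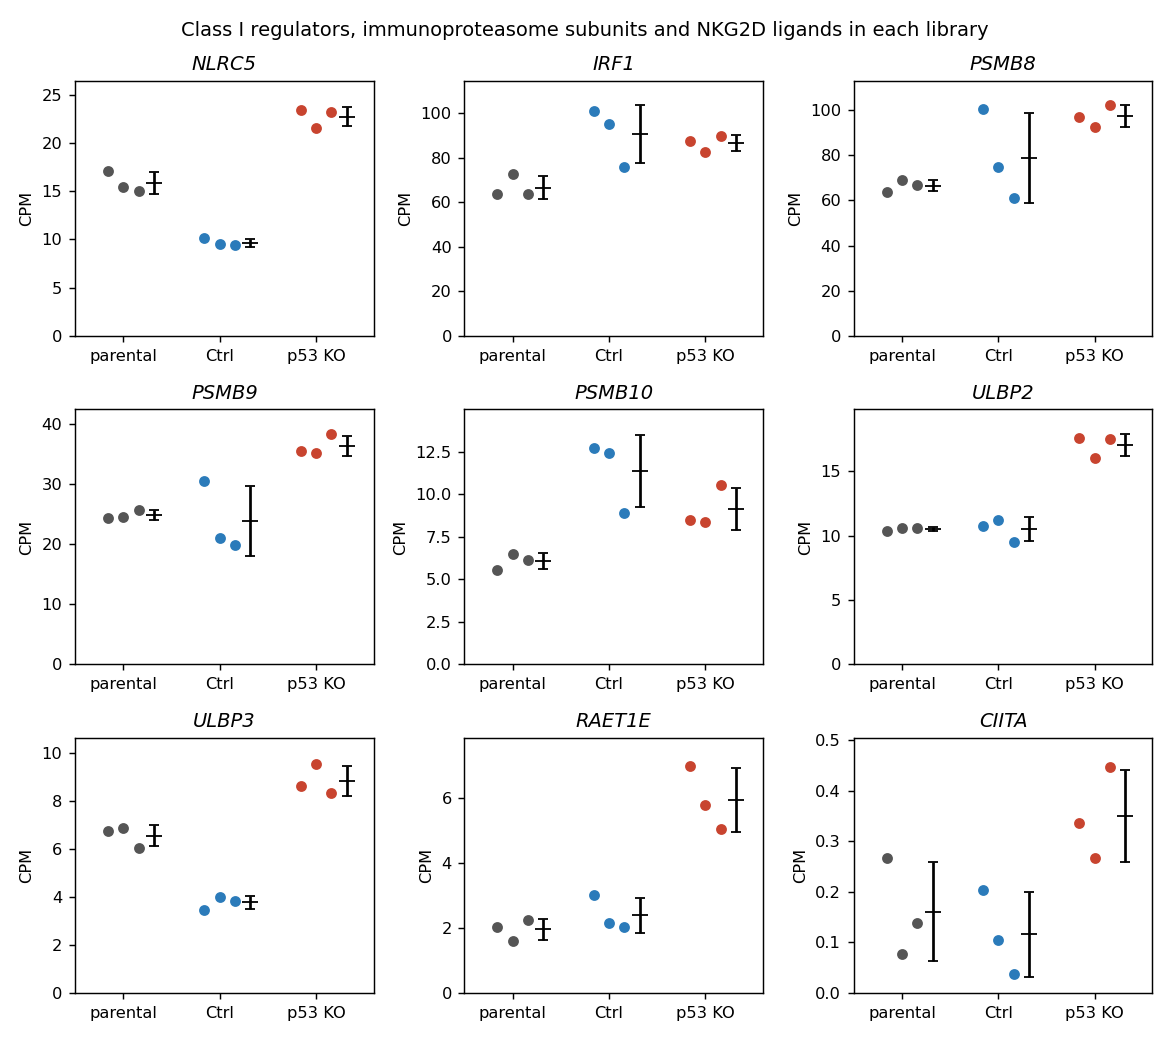
CPM (y axis, linear from 0) in each library of the regulators NLRC5, IRF1 and CIITA, the immunoproteasome subunits PSMB8, PSMB9 and PSMB10, and the NKG2D ligand genes ULBP2, ULBP3 and RAET1E; points are libraries and the bar beside them is the mean ± SD (n = 3). NLRC5 and ULBP3 are lowest in Ctrl and highest in p53 KO cells, and CIITA stays below 0.5 CPM in every library.

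Interferon-stimulated genes outside the pathway were higher as well. Of 10 listed, 9 could be tested, 8 were called higher against parental cells and 7 against Ctrl cells, and 0 were lower. Beside them, 9.77% and 15% of all genes tested were called higher. The medians were 1.15 and 0.98. They include genes that the study itself and earlier results of these data had drawn attention to, so their direction is no independent evidence. RSAD2, an antiviral enzyme, was at 2.08 to 2.37 CPM in parental, 0.991 to 1.65 in Ctrl and 88.3 to 99.5 in p53 KO libraries. IFIT3 rose by 1.67 ± 0.07 and 1.70 ± 0.07 on the log2 scale, OAS1 by 1.89 ± 0.13 and 0.54 ± 0.13, and IFI44L by 2.98 ± 0.41 and 1.63 ± 0.34, against parental and Ctrl cells. OAS1 was also higher in Ctrl than in parental cells, by 1.35 ± 0.13 (edgeR adjusted p = 7.40e-05). IFI44L was near the limit of detection in parental libraries, with 4, 3 and 6 counts, so the size of its difference from them is uncertain. The summed level of the 10 genes was 397 to 424 CPM in parental, 439 to 473 in Ctrl and 1057 to 1129 in p53 KO libraries. It was thus higher in p53 KO cells than in both controls, as were most of the class I genes. Between the controls the sum was higher in Ctrl libraries, while 2 of the 8 class I genes tested, HLA-B and HLA-F, were called lower there and 0 higher. What part these genes have in the class I levels was not tested.

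Class I-like genes, among them the ligands of the killer cell receptor NKG2D, were also mostly higher in p53 KO cells, though several differed between the controls as well. Of 14 listed, 11 could be tested. Against parental cells 6 were called higher (MICB, RAET1E, RAET1G, RAET1L, ULBP2 and ULBP3) and 0 lower. Against Ctrl cells 7 were called higher (MICA, MICB, RAET1E, RAET1L, ULBP2, ULBP3 and PROCR) and 1 lower, MR1, which presents vitamin metabolites. The medians over the 11 were 0.37 and 0.50. Over all genes tested, 9.77% were called higher against parental and 15% against Ctrl cells. Between the controls, MR1 and RAET1G were called higher in Ctrl than in parental cells, and MICA, MICB, ULBP3 and PROCR lower. In p53 KO cells MICA, PROCR and MR1 stood at 0.18 ± 0.10, -0.04 ± 0.10 and -0.10 ± 0.13 from parental cells and were not called. ULBP2, an NKG2D ligand, was at 10.3, 10.6 and 10.6 CPM in parental, 10.8, 11.2 and 9.49 in Ctrl and 17.5, 16.05 and 17.5 in p53 KO libraries, a log2 fold change of 0.70 ± 0.09 against each control (edgeR adjusted p = 0.000458 and 0.000206). RAET1E, of the same family, differed by 1.61 ± 0.19 and 1.35 ± 0.19 (adjusted p = 0.000286 and 0.000311). ULBP3 had the order of HLA-B, with 0.43 ± 0.11 against parental and 1.22 ± 0.11 against Ctrl cells (adjusted p = 0.0170 and 1.93e-05), the first of which was lost without parental replicate 1 or 3 or p53 KO replicate 2 (0.0517 to 0.0756). RAET1L was near the limit of detection in the controls, with 2, 3 and 4 counts in parental, 1, 0 and 2 in Ctrl and 22, 22 and 17 in p53 KO libraries, 19.8 times the Ctrl counts (95% Clopper-Pearson interval 6.47 to 98.7). It had enough counts for a test only through its p53 KO libraries, so it could be called only as higher in them. Its place in both counts of genes called higher therefore adds no support.

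Class II genes, which present outside peptides to CD4 T cells, were scarce. Of 10 listed, 5 had at most 3 counts in every library, CD74, the invariant chain, had at most 11, and CIITA, the class II transactivator, had 1 to 10 counts. Only HLA-DMA, which helps load class II molecules, could be tested, with 22 to 65 counts per library, and it was lower in p53 KO than in Ctrl cells by -0.99 ± 0.29 (edgeR adjusted p = 0.0259) but not called against parental cells (-0.40 ± 0.31, adjusted p = 0.407). The call against Ctrl cells was lost in edgeR with only the 2 groups in the fit (adjusted p = 0.0565) and without any single p53 KO library (0.0534 to 0.0979).

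Of the genes described, 7 of the 8 tested lie in the MHC on chromosome 6, where 141 other genes starting between 28 and 34 Mb were tested. Of these, 16 (11.3%) were higher and 2 (1.42%) lower in p53 KO than in parental cells, with a median log2 fold change of 0.07, beside 9.77% and 8.36% of all genes. On chromosome 6 outside these bounds the shares were 15% higher and 5.65% lower of 620 genes. Against Ctrl cells 23 of the 141 (16.3%) were higher and 11 (7.80%) lower, beside 23.5% and 11.6% on the rest of chromosome 6 and 15% and 14.2% of all genes. PSMB8, which lies beside TAP2, and PSMB9, whose annotated span covers that of TAP1, are among the 16. How reads in this overlap were assigned was not given in the sources used here, and its part in the levels of TAP1 and PSMB9 was not tested. The nearest tested genes on either side of the 5 heavy chain genes were not called by edgeR in any comparison. Next to TAPBP, RGL2 was lower in p53 KO cells, by -0.27 ± 0.08 against parental and -0.74 ± 0.08 against Ctrl cells (edgeR adjusted p = 0.0423 and 7.85e-05), and ZBTB22 was lower against Ctrl cells, by -0.36 ± 0.11 (adjusted p = 0.0286), and not called against parental cells (-0.07 ± 0.11, adjusted p = 0.702). RGL2 was higher in Ctrl than in parental cells, by 0.46 ± 0.08 (adjusted p = 0.00338). Next to B2M, TRIM69 was lower than in Ctrl cells by -0.60 ± 0.10 (edgeR adjusted p = 0.000760), while it stood at 0.07 ± 0.10 from parental cells and was higher in Ctrl than in parental cells by 0.67 ± 0.10 (adjusted p = 0.000953).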

How the data were processed

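RNA was measured in 9 A431 libraries, 3 per group, as strand-specific poly(A) RNA-Seq read in pairs. The authors aligned reads with STAR 2.5.1b to GRCh38, assigned them to Ensembl genes with featureCounts, and deposited raw counts for 58051 genes. Strand setting and the treatment of reads that fit several genes are not given in the sources used here. Groups and replicate numbers come from the sample titles.

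Counts were tested in R 4.3.3 with edgeR 4.0.16: filterByExpr by group (minimum count 10), TMM, 1 mean per group over all 9 libraries, and the quasi-likelihood test, with p-values adjusted by Benjamini-Hochberg over 14513 genes. Standard errors follow from the F statistic, and log2 CPM uses a prior count of 1. Single genes were also compared, p53 KO against the 6 control libraries, by exact permutation. Alternatives were DESeq2 1.42.0 on all libraries or on the 2 groups compared, DESeq2's size factors, other filters, a replicate block, only the 2 groups compared, a log2 fold change past 1.5 and each library left out. The scripts were tested on simulated data.

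The genes named beside the 9 are, in each list, up to 4 with the largest mean absolute log2 fold change among those passing the test against either control, plus NLRC5, PSMB8, PSMB9, ERAP1, ERAP2, TAPBPL and CIITA. MICA, MICB, RAET1G, PROCR, MR1, KRT14, RGL2, TRIM69, ZBTB22, CD74, HLA-F-AS1 and the leukocyte, fibroblast and endothelial markers other than LYZ are named outside that rule, after their values were seen. The genes and lists were chosen with earlier results of these data known. Gene positions are from GENCODE 44 and promoters from RefSeq. A count of 3 was taken as the limit of detection. Replicates with the same number did not deviate together (correlations of deviations -0.32 to 0.04), so the numbers were not used as pairs.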

Additional observations from a re-analysis of the deposited data

Results flagged for a closer look

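HLA-B and HLA-F were the genes among the 9 that were called in opposite directions in p53 KO and in Ctrl cells, each against the parental line. For both genes all 3 p53 KO libraries lay above, and all 3 Ctrl libraries below, every parental library. The gap between p53 KO and Ctrl cells was 1.24 on the log2 scale for HLA-B and a fitted 7.29 for HLA-F. It is the sum of the 2 differences by which the genes were picked, so it is given as a description and was not tested apart from them. The value of HLA-F rests on 1 count in the 3 Ctrl libraries and depends on the prior count. Both comparisons with the parental line use the same parental libraries. Ctrl and parental cells both kept mutant p53.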

How the results depend on the processing

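Of the calls on the 9 genes, those of HLA-B, HLA-F and TAP1 between p53 KO cells and each control kept their direction and their side of the threshold under each refit with another test, filter, scaling, design or set of libraries in which the gene could be tested. With a log2 fold change past 1.5 as a further condition, HLA-B and TAP1 lost their calls against both controls and HLA-F its call against parental cells. Over the 8 tested genes, 18 alternative values lost their call, 4 gained one, 359 stayed on their side and 0 reversed. With that condition the genes called went from 6 to 0 against parental, from 5 to 1 against Ctrl and from 2 to 1 between the controls. With at least 10 counts in every library, which removes HLA-F, 1 was called between the controls. With each library left out, 4 to 6 genes were called against parental, 4 to 6 against Ctrl and 2 to 4 between the controls, where 4 were called without Ctrl replicate 3 (HLA-C at 0.35, adjusted p = 0.0263, and B2M at 0.28, adjusted p = 0.0275, in edgeR). The exact permutation test passed 0.05 for 4 or 5 genes, beside 5 with all libraries.

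Fitted with a replicate block, 5 genes were called against parental, 4 against Ctrl and 2 between the controls. The block ended the calls of HLA-C against parental (edgeR adjusted p = 0.0614) and of B2M against Ctrl cells (0.0830), and no other call on these genes. B2M against Ctrl cells also lost its call with only the 2 groups in the fit (0.0704) and in DESeq2 on those groups without a filter (0.0613), an alternative chosen after seeing the data, as was the length of all exons. With no filter beyond 1 count, HLA-C was called between the controls (0.0484). Over all genes, 2631 were called against parental (1568 to 4944 over the alternatives), 4240 against Ctrl (3100 to 5162) and 2943 between the controls (1379 to 4375). Of the other named genes, 108 alternative values lost a call, 16 gained one and 1254 stayed on their side. Depth limits HLA-F in Ctrl cells, HLA-G and most class II genes.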
